A study of Mus musculus with 9 samples.

Results

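Coagulation and fibrinolysis genes were compared across 3 macrophage populations of the mouse lung. The genes were F3, F7, F10, F13a1, Tfpi, Thbd, Procr, Plau and Plaur, taken by gene symbol, and all 9 were found among 24346 symbols. Clotting starts when tissue factor, the product of F3, meets factor VII on a cell surface. The complex activates factor X, which leads to thrombin and fibrin, and factor XIII then cross-links the fibrin. Tissue factor pathway inhibitor, thrombomodulin and the endothelial protein C receptor restrain the process, and urokinase with its receptor turns plasminogen into plasmin, which dissolves fibrin. Macrophages are known as a source of factor XIII-A and of urokinase receptor, while most soluble clotting factors of the plasma are made in the liver.

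All mice were C57BL/6 at postnatal week 10, and the study used females. Lewis lung carcinoma cells, a mouse lung cancer line that here carried tdTomato, were placed in the left lung, and controls were given vehicle. CD45+ autofluorescent cells of digested lungs were sorted into Siglec-F+ alveolar macrophages (AMs) and Siglec-F- F4/80+ tumor-associated macrophages (TAMs). The groups of 3 samples each were Ctrl-AM (AMs of vehicle-treated mice), Tumor-AM (AMs of tumor-bearing mice) and Tumor-macrophage (TAMs of tumor-bearing mice). Each sample was sorted bulk RNA, so fewer cells with a transcript and less transcript per cell cannot be told apart. The tumor model rests on a single cell line. Per the study's description the samples of each population came from 3 mice, and whether Tumor-AM and Tumor-macrophage samples came from the same mice is not given in the labels.

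Expression is given as FPKM, fragments per kilobase of transcript relative to the library's mapped fragments, which can be compared between genes. By the depth estimated for each library, 1 FPKM over 1 kb of transcript stood for 10.2 to 12.8 reads. Siglecf, which encodes the protein of the gate, was at a mean of 201.4 ± 7.95 FPKM in Ctrl-AM samples, 171.5 ± 10.3 in Tumor-AM samples and 0.651 ± 0.19 in Tumor-macrophage samples (SD, n = 3 each), as the gate sets. C1qa, a complement gene of TAMs, was at 2.61 ± 1.22, 9.79 ± 3.48 and 2171 ± 84.1 FPKM in the same order. Summed AM markers ran from 767.4 to 833.6, 551.0 to 834.0 and 96.2 to 118.7 FPKM, neutrophil markers from 111.9 to 132.0, 110.2 to 164.6 and 91.0 to 139.0, and epithelial markers from 69.9 to 216.9, 55.1 to 90.7 and 19.3 to 71.97, again in this order. Between the AM groups, the AM marker Pparg was lower in Tumor-AM (change −0.53 on the log2 scale, limma adjusted p = 0.00455), as were the neutrophil markers S100a9 (−1.81, limma adjusted p = 0.0173) and Retnlg (−1.09, limma adjusted p = 0.0391). The neutrophil markers S100a8 (0.60, limma adjusted p = 0.0708) and Cxcr2 (0.22, limma adjusted p = 0.339) went the other way without overlap but were not past the threshold. Csf3r did not pass either (−0.22, limma adjusted p = 0.629), so the list had no common direction. Errors of FPKM below are SDs over 3 samples, and errors of log2 changes are standard errors. Changes are on the scale of log2(FPKM + 1), which understates changes of low genes, and were called at a Benjamini-Hochberg adjusted p under 0.05 in limma over 10686 genes tested.

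Between Tumor-AM and Ctrl-AM, F13a1, Procr, Thbd and Plaur were higher, and 5 of the 9 genes did not pass the test. Among all genes tested, 7.11% were called higher and 3.18% lower in this comparison (760 and 340 genes). This balance depended on the scaling, with 477 higher and 830 lower after rescaling to TPM and 607 and 446 after quantile normalization. The median log2 change was 0.37 over the 9 genes and 0.01 over all genes. Between Tumor-macrophage and Tumor-AM, F13a1, Procr, Plau and Tfpi were higher, F7, F10, Thbd and Plaur were lower, and F3 did not pass, against a background of 24.2% called higher and 24.4% lower. Between Tumor-macrophage and Ctrl-AM, 5 genes were higher and 4 lower, where 27.7% and 27.1% of all genes were called (2960 and 2900, or 2193 and 4529 after rescaling to TPM). The median changes of the 9 genes were 0.49 and 0.80 in these comparisons, and those of all genes were 0.00117 and −0.00824. The comparisons share samples and are not independent of each other. All 9 genes passed the filter of at least 1 FPKM in at least 3 of 9 samples, but Plau passed only through Tumor-macrophage, and F3 through 1 Tumor-AM and 2 Tumor-macrophage samples. Their passing therefore carries no weight.

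**Figure D1:**
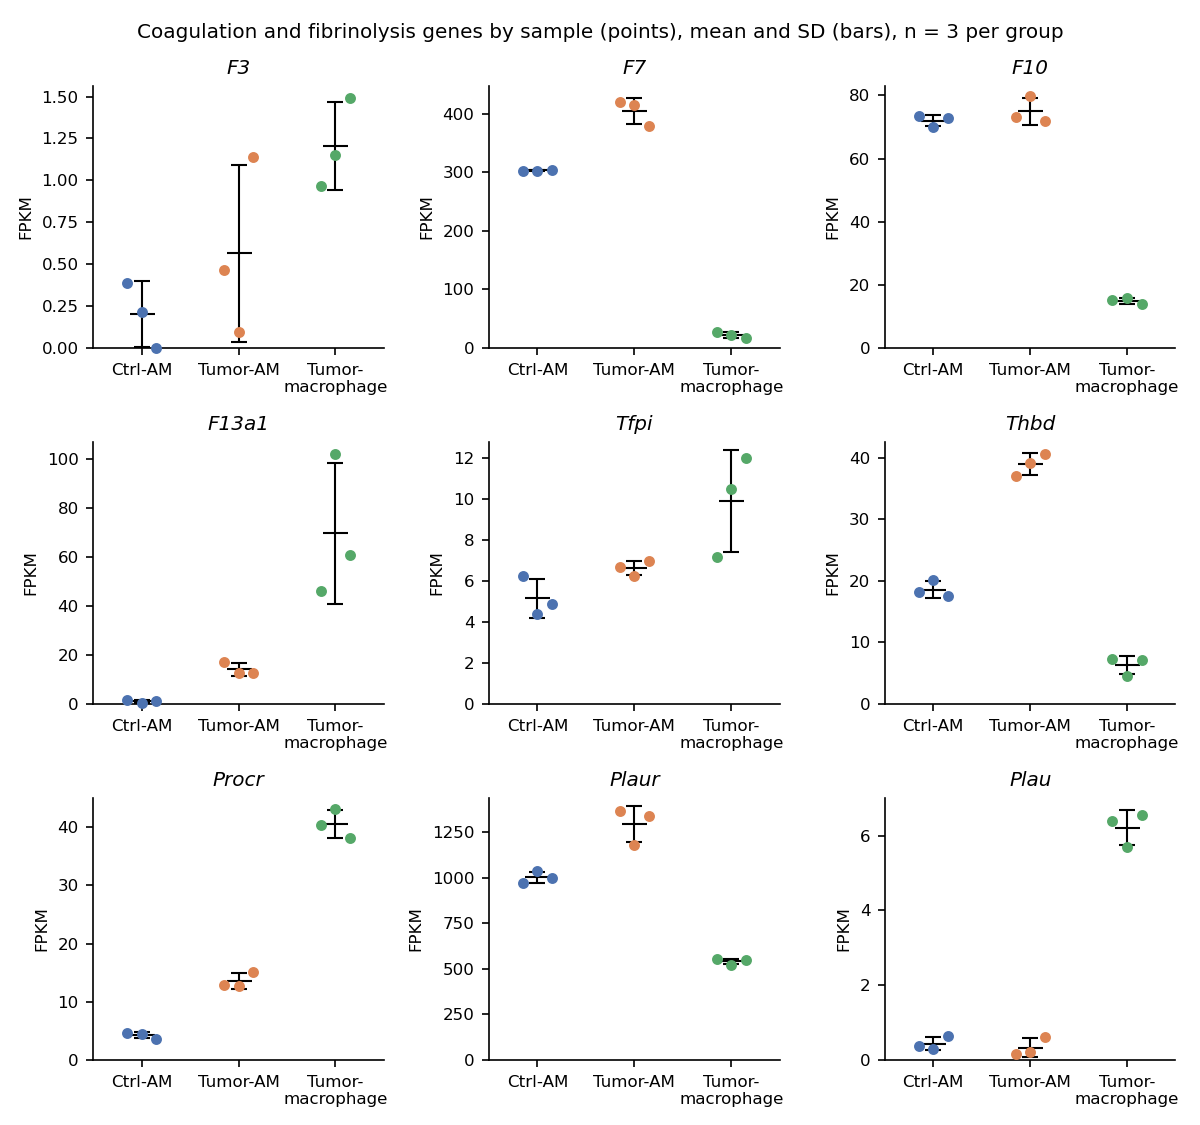
FPKM (vertical axes, each starting at 0) of the 9 genes in each of the 9 samples, with points for samples and bars for the mean and SD of each group (n = 3). F7 sits between 302.2 and 419.8 in the 6 AM samples and between 17.3 and 27.5 in Tumor-macrophage, and F13a1 steps up from Ctrl-AM to Tumor-AM to Tumor-macrophage with no overlap.

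The genes of factor VII and factor X, serine proteases of the initiating step, were expressed at a high level by AMs of either kind and at a lower one by TAMs. The 3 Ctrl-AM samples had 302.2, 302.6 and 303.9 FPKM of F7, the Tumor-AM samples 419.8, 414.3 and 378.9, and the Tumor-macrophage samples 27.5, 21.5 and 17.3. The 3 groups did not overlap, and Tumor-AM was highest. The mean of Tumor-macrophage was 18.3-fold below that of Tumor-AM, a log2 change of −4.16 ± 0.13 (limma adjusted p = 2.39e-09). F7 ranked 313th by mean level among the 10686 genes in Ctrl-AM and 232nd in Tumor-AM, but 3247th in Tumor-macrophage. The difference between Tumor-AM and Ctrl-AM was 0.41 ± 0.13 (95% interval 0.12 to 0.71) and was not past the threshold (limma unadjusted p = 0.00995, adjusted p = 0.0763). It was past it when only both AM groups were fitted (limma adjusted p = 0.00636) and without Tumor-macrophage 1 (adjusted p = 0.0155) or Tumor-macrophage 3 (adjusted p = 0.0238).

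F10 was at 73.4, 69.9 and 72.9 FPKM in Ctrl-AM samples, 73.3, 79.7 and 71.8 in those of Tumor-AM, and 15.1, 15.9 and 13.8 in those of Tumor-macrophage. The AM groups overlapped, and both lay above every Tumor-macrophage sample. Tumor-macrophage was 5.02-fold below Tumor-AM (log2 change −2.25 ± 0.077, limma adjusted p = 3.83e-09). Between the AM groups the change was 0.05 ± 0.077, with a 95% interval from −0.12 to 0.22 (limma adjusted p = 0.722). F7 exceeded F10 in every sample. Their FPKM ratio was 4.20 ± 0.111 in Ctrl-AM samples, 5.40 ± 0.285 in Tumor-AM samples and 1.47 ± 0.305 in Tumor-macrophage samples, and no groups overlapped. Each of these differences had an exact permutation p of 0.1 (two-sided), the smallest that 3 samples against 3 can give.

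Alb, Apoa1 and Ttr, abundant plasma protein genes of hepatocytes, summed to at most 0.511 FPKM in any sample, so the high F7 and F10 levels of AMs were not accompanied by these liver transcripts. F7 lies on chromosome 8 from 13026034 to 13035809 and F10 from 13037308 to 13056676 (GRCm38, plus strand), with 8 and 9 exons. The genes are neighbours, separated by 1498 bases with no annotated gene between them. Across the 9 samples their log2 levels correlated with r = 0.995, a description that rests mainly on the step between AMs and TAMs, since the 9 points fall in 3 groups.

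The 250 bases before the RefSeq start of each gene (GRCm38.p6, chr8:13025784-13026033 and chr8:13037058-13037307, plus strand) are shown because both neighbours were lower in TAMs than in AMs. Many other genes shared that step, and between the AM groups only F7 differed without overlap. Capitals mark TGACCTTTG, which reads on the other strand as a sequence ending in AGGTCA, the half-site of many nuclear receptors.
F7: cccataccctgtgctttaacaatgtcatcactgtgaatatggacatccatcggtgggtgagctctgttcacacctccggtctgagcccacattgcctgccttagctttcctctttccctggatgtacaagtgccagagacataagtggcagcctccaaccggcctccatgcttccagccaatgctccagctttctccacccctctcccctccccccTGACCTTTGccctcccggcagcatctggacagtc
F10: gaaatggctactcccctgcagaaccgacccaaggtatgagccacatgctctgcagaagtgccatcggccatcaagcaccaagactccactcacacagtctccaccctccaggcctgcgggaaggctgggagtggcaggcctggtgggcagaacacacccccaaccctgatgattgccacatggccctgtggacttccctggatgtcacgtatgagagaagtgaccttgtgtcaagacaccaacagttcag
The F7 window held this sequence 34 bases before the start, and the F10 window did not hold all of its letters, although it held the half-site alone as tgacct. It was found on either strand in 0.43% of 32851 RefSeq promoter windows of the same length, and it was searched for only after the F7 sequence had been seen.

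F3, which encodes tissue factor, the membrane receptor of factor VII, was near the limit of detection. The gene has 6 exons on chromosome 3 at 121723537 to 121735048 (plus strand). It was at 0.390, 0.214 and 0 FPKM in Ctrl-AM samples, 0.466, 0.0956 and 1.14 in those of Tumor-AM, and 0.969, 1.15 and 1.49 in those of Tumor-macrophage. An FPKM of 1 stands for 19.0 to 23.9 reads of this gene, so the highest value rested on about 31.7 reads and Ctrl-AM 3 on none. Tumor-AM overlapped both other groups, while every Tumor-macrophage sample exceeded every Ctrl-AM sample. Tumor-macrophage was above Ctrl-AM by 0.88 ± 0.23 (limma adjusted p = 0.00832). The differences of 0.34 ± 0.23 between the AM groups (95% interval −0.18 to 0.86, limma adjusted p = 0.414) and of 0.54 ± 0.23 between Tumor-macrophage and Tumor-AM (95% interval 0.02 to 1.06, limma adjusted p = 0.0797) were not past the threshold. Tumor-AM 3, the Tumor-AM sample with most F3, also had the highest sum of fibroblast markers, mostly from Dcn at 25.7 and Col3a1 at 21.0 FPKM. Col1a2 was at 0.562 FPKM in this sample and higher, at 0.809, in Ctrl-AM 2. The 5 fibroblast markers summed to 3.24 to 6.35 FPKM in Ctrl-AM samples, 7.84 to 50.1 in Tumor-AM samples and 6.11 to 9.55 in Tumor-macrophage samples. Of the Tumor-AM samples, Tumor-AM 3 also had the most C1qa, C1qb and C1qc (13.8, 69.9 and 30.0 FPKM). It did not have the most Ccr2 or Ly6c2. The part of fibroblast and TAM transcripts in the F3 values was not tested.

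**Figure D2:**
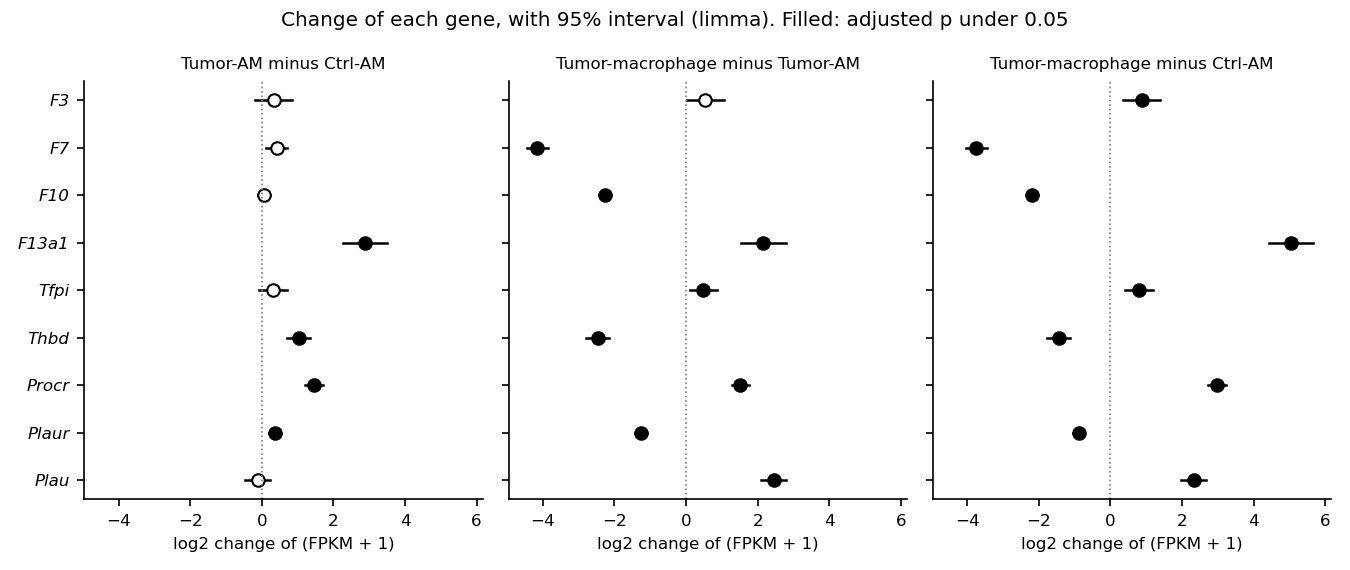
Log2 change of (FPKM + 1) with its 95% interval for each gene in the 3 comparisons (limma, n = 3 per group), with filled points for an adjusted p under 0.05 and open points for the rest. F13a1 and Procr lie to the right of 0 in all 3 panels, and F7 and F10 lie to the left of 0 in both comparisons with Tumor-macrophage.

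F13a1, which encodes the catalytic A subunit of factor XIII, the transglutaminase that cross-links fibrin, had the largest change of the 9 genes in Tumor-AM. Its values were 1.54, 0.486 and 1.19 FPKM in Ctrl-AM samples, 17.2, 12.5 and 12.6 in those of Tumor-AM, and 46.4, 101.9 and 60.9 in those of Tumor-macrophage. The groups did not overlap and rose in that order. Tumor-AM exceeded Ctrl-AM 13.2-fold in mean FPKM, a log2 change of 2.89 ± 0.28 (limma adjusted p = 0.000284). Tumor-macrophage exceeded Tumor-AM 4.93-fold (2.16 ± 0.28, limma adjusted p = 8.13e-05) and Ctrl-AM 65.1-fold (5.05 ± 0.28, limma adjusted p = 8.81e-08). By mean level the gene moved from rank 9850 in Ctrl-AM to 4313 in Tumor-AM and 1322 in Tumor-macrophage. The gene spans 36867178 to 37050244 on the minus strand of chromosome 13 and overlaps the predicted genes Gm30489 and Gm49144, and whether strand was used in counting is not given in the sources used here.

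Platelets also hold factor XIII-A, so platelet genes are given beside it. Of 11 platelet and megakaryocyte markers, 2 were tested. Pf4 was at 289.6, 583.2 and 526.7 FPKM in Tumor-macrophage and at 6.87 ± 1.805 in Tumor-AM, a log2 change of 5.86 (limma adjusted p = 2.47e-08), and its change between the AM groups was 0.47 (limma adjusted p = 0.296). Clec1b went the other way, with a change of −3.03 between Tumor-macrophage and Tumor-AM (limma adjusted p = 8.12e-08) and of −0.74 between the AM groups (limma adjusted p = 0.0150). Tumor-macrophage 1 was lowest and Tumor-macrophage 2 highest for both Pf4 and F13a1. The summed list ran from 33.5 to 38.9 FPKM in Ctrl-AM samples, 19.2 to 29.7 in Tumor-AM samples and 291.7 to 589.7 in Tumor-macrophage samples, nearly all of the last from Pf4. In Tumor-macrophage, Itga2b was at 0 in 3 of 3 samples, Ppbp was at 0.309, 5.12 and 1.47 FPKM, Gp9 at 0.149, 0.145 and 0.664, and Treml1 at 0.194, 0.219 and 0.201, the last above every Ctrl-AM sample. Gp6 was at 0 in all 9 samples. The part of platelet RNA in the F13a1 levels of Tumor-macrophage was not tested.

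Procr, which encodes the endothelial protein C receptor that presents protein C for activation, was stepped like F13a1. It was at 4.71, 4.51 and 3.69 FPKM in Ctrl-AM samples, 12.8, 12.7 and 15.1 in those of Tumor-AM, and 40.5, 43.1 and 38.2 in those of Tumor-macrophage. Again the groups did not overlap. The mean was 3.15-fold that of Ctrl-AM in Tumor-AM (change 1.46 ± 0.11 on the log2 scale, limma adjusted p = 0.000126) and in Tumor-macrophage it was 3.00-fold that of Tumor-AM (1.52 ± 0.11, limma adjusted p = 9.05e-07). Endothelial cells are known for this receptor, and 9 endothelial markers summed to 11.5 to 16.7 FPKM in Ctrl-AM samples, 4.98 to 16.7 in Tumor-AM samples and 6.61 to 16.2 in Tumor-macrophage samples, with the defining gene Cdh5 at no more than 0.431 FPKM in any sample. Of the 4 that were tested, Pecam1 was higher in Tumor-macrophage than in Tumor-AM by 1.16 (limma adjusted p = 0.000152). Its change between the AM groups was −0.31 (limma adjusted p = 0.281). The others had negative changes from Tumor-AM to Tumor-macrophage that were not past the threshold. These were −0.60 for Cldn5, −0.26 for Egfl7 and −0.31 for Ramp2 (limma adjusted p = 0.141, 0.626 and 0.639). Relative to Ctrl-AM, the Tumor-macrophage level was called higher for Pecam1 (0.86, limma adjusted p = 0.00111) and lower for Cldn5 (−0.96, adjusted p = 0.0243). The part of endothelial RNA in the Procr levels was not tested. Procr (4 exons) lies on chromosome 2 at 155751117 to 155755471 (plus strand).

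In Tumor-AM, 5 of 7 TAM markers were called higher as well. The summed FPKM of the 7 markers ran from 23.1 to 29.0 in Ctrl-AM samples and 68.2 to 126.7 in Tumor-AM samples. In Tumor-macrophage samples it ran from 13573 to 14036, nearly all from C1qa, C1qb and C1qc. The Tumor-AM level of each gene above Ctrl-AM was therefore expressed as a share of the distance in FPKM between the means of Ctrl-AM and Tumor-macrophage. Of the 5 genes called higher in Tumor-macrophage against Ctrl-AM, F13a1 covered 19.0% of this distance, with 23.6%, 16.7% and 16.9% in the 3 Tumor-AM samples, and Procr covered 25.5%, with 23.4%, 23.1% and 29.9%. The other 3 genes, not called between the AM groups, were at −1.82% for Plau (−4.80%, −3.72% and 3.05%), 31.2% for Tfpi (31.8%, 23.4% and 38.4%) and 36.4% for F3 (26.4%, −10.6% and 93.4%). Among the TAM markers Ccr2 covered 7.07%, Ly6c2 5.05%, Tgfb3 2.31%, C1qb 0.532%, C1qc 0.335%, C1qa 0.331% and Cx3cr1 0.234%. A very high Tumor-macrophage level makes this share small, and the log2 changes between the AM groups had another order. They were 2.89 for F13a1, 1.95 for C1qb, 1.67 for C1qc, 1.60 for C1qa, 1.46 for Procr, 0.97 for Ccr2 and 0.50 for Ly6c2. F13a1 and Procr were already called higher in Tumor-AM, so their shares are a description. The part of TAM transcripts in the Tumor-AM levels was not tested.

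**Figure D3:**
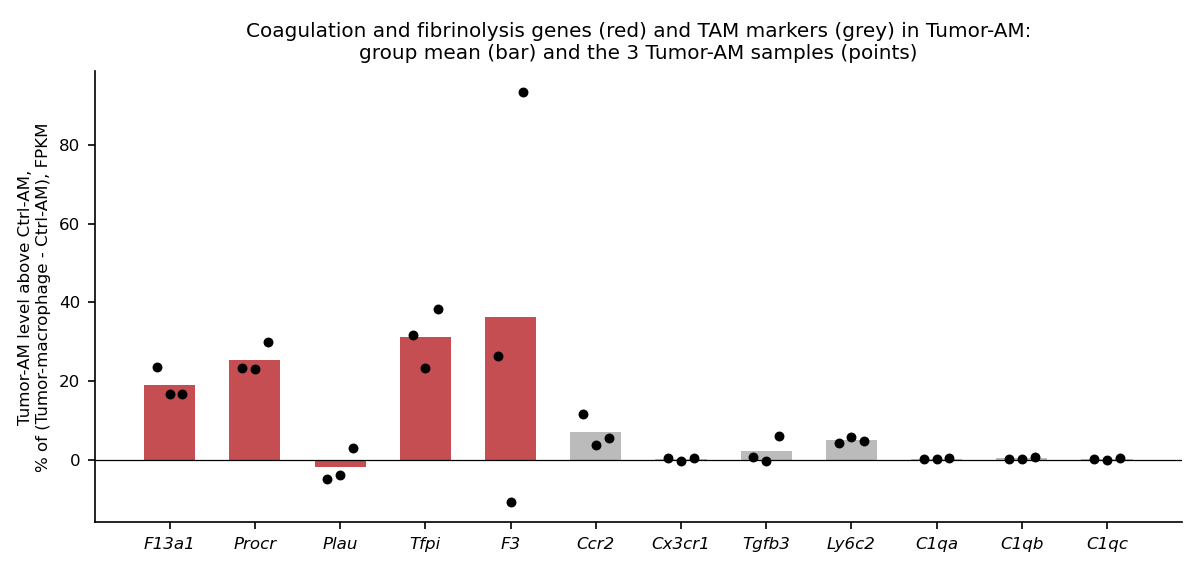
Level in Tumor-AM above Ctrl-AM of the 5 coagulation and fibrinolysis genes called higher in Tumor-macrophage against Ctrl-AM (red) and of 7 TAM markers (grey), as a percentage of the distance in FPKM between the means of Ctrl-AM and Tumor-macrophage (vertical axis), with bars for the group mean and points for the 3 Tumor-AM samples. The points of F13a1 and Procr lie between 16.7% and 29.9%, those of Plau between −4.80% and 3.05% and those of F3 between −10.6% and 93.4%, and the highest point of the markers is 11.6% for Ccr2.

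Thbd encodes thrombomodulin, which turns thrombin from a clotting enzyme into an activator of protein C, the step that Procr assists. Thbd was at 18.1, 20.1 and 17.5 FPKM in Ctrl-AM samples, 37.0, 39.1 and 40.6 in those of Tumor-AM, and 7.29, 4.56 and 7.17 in those of Tumor-macrophage. The groups did not overlap, with Tumor-AM highest and Tumor-macrophage lowest. Tumor-AM exceeded Ctrl-AM 2.09-fold (log2 change 1.03 ± 0.14, limma adjusted p = 0.00216), and Tumor-macrophage was 6.14-fold below Tumor-AM (−2.47 ± 0.14, limma adjusted p = 1.91e-07). Thbd has 1 exon, on chromosome 2 at 148404466 to 148408188 (minus strand). Thbd and Procr, the receptors of the protein C pathway, thus both exceeded Ctrl-AM in Tumor-AM but went apart in Tumor-macrophage. The FPKM ratio of Thbd to Procr was 4.35 ± 0.462 in Ctrl-AM samples, 2.89 ± 0.202 in Tumor-AM samples and 0.158 ± 0.0452 in Tumor-macrophage samples. No groups overlapped, and each difference had the smallest exact permutation p that this design allows, 0.1 (two-sided).

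**Figure D4:**
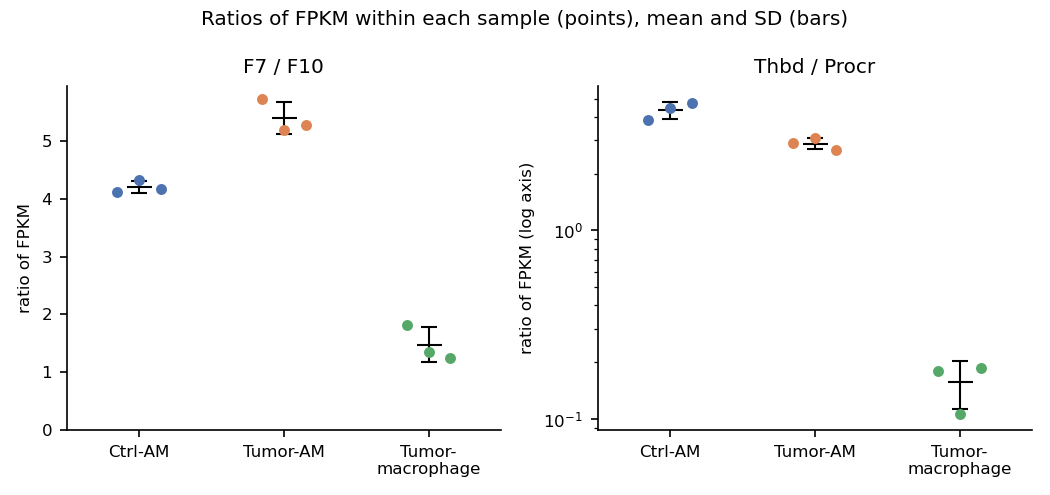
FPKM ratios within each sample, F7 to F10 on a linear axis from 0 and Thbd to Procr on a log axis, with points for samples and bars for the mean and SD of each group (n = 3). The ratio of F7 to F10 is highest in Tumor-AM at 5.40, and the ratio of Thbd to Procr falls to 0.158 in Tumor-macrophage.

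Tfpi encodes tissue factor pathway inhibitor, which blocks the complex of tissue factor and factor VII together with factor X. It was at 6.22, 4.38 and 4.88 FPKM in Ctrl-AM samples, 6.66, 6.26 and 6.97 in those of Tumor-AM, and 7.15, 10.5 and 12.03 in those of Tumor-macrophage. The groups did not overlap, although the nearest samples of neighbouring groups lay close together. Tumor-macrophage exceeded Ctrl-AM 1.92-fold (log2 change 0.80 ± 0.17, limma adjusted p = 0.00257). The change of 0.32 ± 0.17 between the AM groups had a 95% interval from −0.07 to 0.71 (limma adjusted p = 0.297). The change of 0.49 ± 0.17 between Tumor-macrophage and Tumor-AM was just past the threshold (limma adjusted p = 0.0400) and was outside it in 11 of 18 alternative settings. Tfpi (10 exons) lies on chromosome 2 at 84432855 to 84476775 (minus strand).

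Plau and Plaur, the genes of urokinase and of its membrane receptor, moved in opposite directions between AMs and TAMs. Plau was at 0.381, 0.301 and 0.635 FPKM in Ctrl-AM samples, 0.162, 0.224 and 0.615 in those of Tumor-AM, and 6.39, 5.69 and 6.57 in those of Tumor-macrophage. The AM samples overlapped and rested on about 4.0 to 19.0 reads each, while each Tumor-macrophage sample had at least 139.1. Tumor-macrophage exceeded Tumor-AM by 2.45 ± 0.16 on the log2 scale (limma adjusted p = 4.00e-07, and 6.80e-05 with no filter on low values). Plau passed the filter only through Tumor-macrophage, the group where it is high, so this p is a description. The change between the AM groups was −0.12 ± 0.16 (95% interval −0.47 to 0.23, limma adjusted p = 0.705). Plau (11 exons) lies on chromosome 14 at 20836660 to 20843385 (plus strand), and Plaur (7 exons) on that of chromosome 7 from 24462484 to 24475968.

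Plaur was the most abundant of the 9 genes. It was at 973, 1034 and 999 FPKM in Ctrl-AM samples, 1365, 1180.4 and 1335 in those of Tumor-AM, and 553, 522 and 546 in those of Tumor-macrophage. The groups did not overlap, with Tumor-AM highest. The gene ranked 64th in Ctrl-AM, 50th in Tumor-AM and 171st in Tumor-macrophage among all genes tested, so it stayed abundant in TAMs, where its mean was 2.39-fold below that of Tumor-AM (log2 change −1.26 ± 0.073, limma adjusted p = 1.82e-07). In Tumor-macrophage Plaur still exceeded Plau 87.1 ± 4.23 times in FPKM. The 1.29-fold difference between the AM groups (0.37 ± 0.073, limma adjusted p = 0.0115) was outside the threshold after rescaling to TPM (0.23, limma adjusted p = 0.0952), without Ctrl-AM 1 (0.34, adjusted p = 0.0604) and without Ctrl-AM 3 (0.36, adjusted p = 0.0528).

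Against Ctrl-AM, Tumor-macrophage differed in all 9 genes, where 27.7% of all genes tested were called higher and 27.1% lower. Plau passed the filter only through Tumor-macrophage, and F3 mostly through it, so the calls of these genes are a description. The log2 changes were −3.74 ± 0.13 for F7 (limma adjusted p = 3.29e-09), −2.20 ± 0.077 for F10 (3.22e-09), −1.44 ± 0.14 for Thbd (1.04e-05) and −0.89 ± 0.073 for Plaur (2.08e-06). Procr rose by 2.97 ± 0.11 (limma adjusted p = 4.63e-09) and Plau by 2.33 ± 0.16 (4.52e-07), and F13a1, Tfpi and F3 are given above. Thbd and Plaur thus had their highest level in Tumor-AM and their lowest in Tumor-macrophage. F7 had the same order without overlap, although its change between the AM groups was not past the threshold. The means of F10 followed it too, with overlapping AM groups.

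Lungs were digested enzymatically before the sort, so 12 immediate-early genes, which can respond to tissue handling, are given beside the AM changes. Of these, 5 were higher in Tumor-AM, where 7.11% of all genes tested were. Among them were Ier3 with 45.8 ± 2.34 and 189.4 ± 14.2 FPKM and Junb, a subunit of AP-1, with 277.6 ± 37.5 and 607.9 ± 143.1 FPKM. The study's single-cell data had AM clusters found mainly in tumor-bearing mice. Among genes higher in these clusters, the study reports Junb as its top-scoring transcription factor. Fos, Jun, Egr1, Atf3, Ier2 and Zfp36 (log2 changes of 0.10 to 0.50) and Dusp1 (−0.22) were not past the threshold. The sum of all 12 ran from 1889 to 2272 FPKM in Ctrl-AM samples, 2446 to 3192 in Tumor-AM samples and 2549 to 3502 in Tumor-macrophage samples. The part of handling in the higher Plaur, Thbd and Procr levels was not tested.

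The windows before the starts of Procr (chr2:155750967-155751216) and Plaur (chr7:24462233-24462482, both GRCm38.p6, plus strand) are shown because both genes were higher in Tumor-AM and both windows hold the AP-1 sequence TGANTCA. In capitals are this sequence and, in Plaur, GGGCGG, the sequence of SP1, of which the second and the third copy share a base.
Procr: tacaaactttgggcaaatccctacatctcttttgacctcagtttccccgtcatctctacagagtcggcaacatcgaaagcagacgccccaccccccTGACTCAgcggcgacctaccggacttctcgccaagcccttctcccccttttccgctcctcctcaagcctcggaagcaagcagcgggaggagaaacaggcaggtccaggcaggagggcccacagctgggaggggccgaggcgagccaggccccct
Plaur: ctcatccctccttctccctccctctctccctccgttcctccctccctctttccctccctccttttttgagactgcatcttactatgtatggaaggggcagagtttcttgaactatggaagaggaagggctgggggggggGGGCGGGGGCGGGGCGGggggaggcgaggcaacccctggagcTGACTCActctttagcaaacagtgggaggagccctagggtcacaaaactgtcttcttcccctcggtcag
TGANTCA begins 154 bases before the RefSeq start of Procr and 69 bases before that of Plaur. The GENCODE start of Procr, 155751117, lies inside its window, so this distance depends on the annotation. It was found in 6.75% of all windows, and GGGCGG in 32.74%, on either strand. Windows were available for 7 of the 9 genes, all but Plau and Thbd. TGANTCA was also in the window of F3, which was not called higher in Tumor-AM, and was not in the windows of F13a1. GGGCGG was in F3, Plaur and Tfpi, TATAAA (12.37% of all windows) in Tfpi, and GAGGAAGT, a sequence bound by PU.1 (2.44%), in none of the 7 genes. These matches describe letters and do not show binding.

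The rest of the pathway was read from a list of 41 other genes, of which 12 passed the filter. The 29 others did not exceed 2.45 FPKM in any sample, and 10 of them were listed at 0 in all 9 samples: the fibrinogen genes Fga, Fgb and Fgg, the kininogen genes Kng1 and Kng2, Proc, Plg, Cpb2, Serpina5 and Serpina10. Prothrombin (F2) did not exceed 0.0801 FPKM and the 4 protease-activated receptor genes did not exceed 1.06. Macrophages of all 3 groups therefore held transcripts of F7 and F10 but almost none of the substrate genes that encode prothrombin, fibrinogen and plasminogen.

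Between the AM groups, 0 of the 12 genes passed the test (limma, 2 with an unadjusted p under 0.05), with a median log2 change of 0.03, where 7.11% of all genes were called higher and 3.18% lower around a median of 0.01. A count of 0 of 12 is near that background. Between Tumor-macrophage and Tumor-AM, 9 were lower and 0 higher (median −1.03), against 24.4% lower and 24.2% higher over all genes (median 0.00117). Between Tumor-macrophage and Ctrl-AM, 10 were lower and 0 higher (median −1.05), against 27.1% and 27.7% over all genes (median −0.00824). Protein S (Pros1), the cofactor of activated protein C, had means of 147.2 FPKM in Ctrl-AM samples, 154.7 in Tumor-AM samples and 30.8 in Tumor-macrophage samples (−2.30 against Tumor-AM, limma adjusted p = 9.47e-09). Anxa2 and S100a10 encode a cell surface complex that binds plasminogen. Anxa2 was at 2722, 2859 and 567.3 FPKM in the same order (−2.33, limma adjusted p = 3.07e-09), and S100a10 fell by 1.11. The plasminogen receptor gene Plgrkt fell by 0.96 and Lrp1, a receptor that clears urokinase complexes, by 0.48. Vwf, the gene of von Willebrand factor, fell by 1.32, Vkorc1l1 by 1.93 and Ano6, a lipid scramblase that exposes phosphatidylserine, by 0.49 in Tumor-macrophage. Ggcx, the carboxylase that factors VII and X require, Vkorc1 and Xkr8 were not past the threshold between the populations of tumor-bearing mice, and Vkorc1 had a change of −0.25 between Tumor-macrophage and Ctrl-AM (limma adjusted p = 0.00801).

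**Figure D5:**
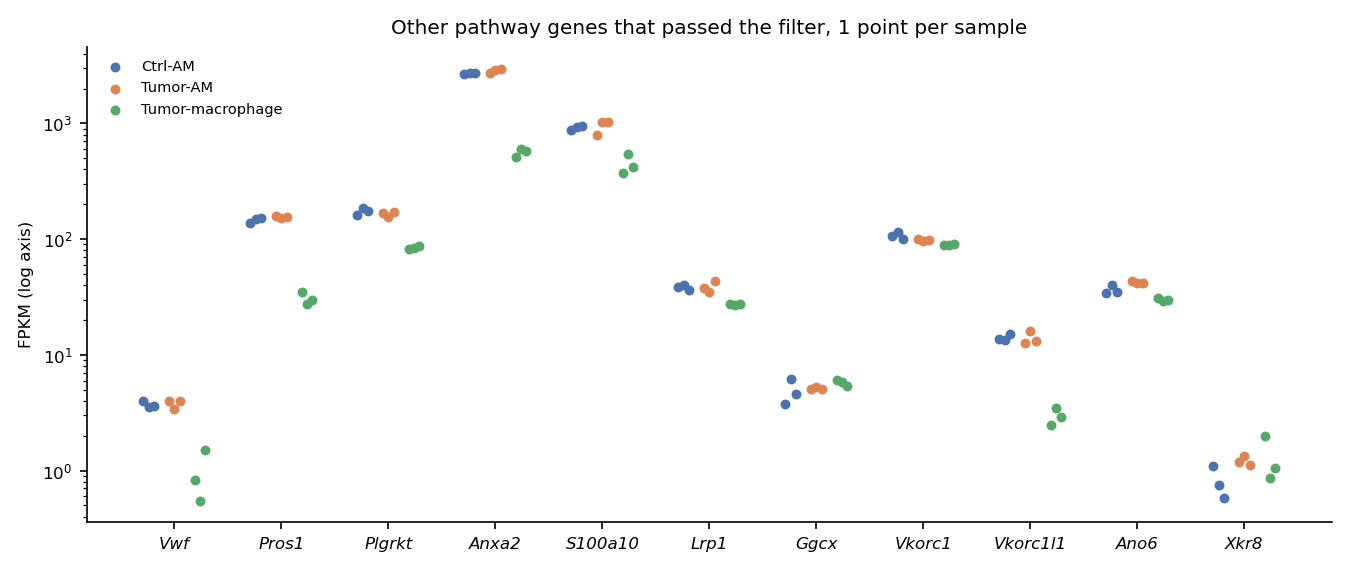
FPKM on a log axis of 11 of the 12 other pathway genes that passed the filter, with 1 point per sample and colours for the 3 groups. Tumor-macrophage points lie below the AM points for Pros1, Anxa2 and Vkorc1l1, with Anxa2 at a mean of 567.3 compared with 2859 in Tumor-AM, while both AM groups lie close together.

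The genes whose log2 levels over the 9 samples were most like those of each gene with a group mean of at least 10 FPKM were picked by Pearson r. These values are a description, since the samples fall in 3 groups and many genes share each pattern. For F7 they were Agpat9 (r = 0.998), Tbc1d2 (0.997) and Rhof (0.996), and for F10 they included Rhof (0.999) and Ly75 (0.998). An r over 0.9 was shared with F7 by 1338 genes and with F10 by 1410. Plaur was most like Capn15 (0.995), Nfe2 (0.993) and Slc25a25 (0.993), and Thbd was most like Klhl21 (0.991), Nfe2 (0.990) and Sema4b (0.990). Nfe2, which encodes a transcription factor, thus appeared for both. Its mean FPKM was 6.39 in Ctrl-AM samples, 13.9 in Tumor-AM samples and 1.21 in Tumor-macrophage samples. F13a1 was most like Ppp2r1a (0.986), 9530068E07Rik (0.985) and Procr (0.979), and Procr was most like Gm5424 (0.997), H2-Q5 (0.996) and Stim2 (0.993). Values of Gm5424 and H2-Q5 are uncertain, since how reads of near-identical gene copies were counted is not given in the sources used here. For each of the 9 coagulation and fibrinolysis genes, by contrast, no 75-base window of the annotated transcript with the longest coding sequence occurred in another gene.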

How the data were processed

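RNA sequencing covered 9 samples of sorted lung macrophages. The authors prepared cDNA (SMART-Seq HT kit) and Nextera libraries, mapped single-end reads to mm10 with TopHat2 2.1.1 and Bowtie2, and deposited FPKM values, per the submitters' notes computed with Cuffdiff 2.2.1. Annotation, strand and treatment of multi-mapped reads are not given in the sources used here. FPKM divides by transcript length and by mapped reads, so a few very abundant RNAs can lower all other values of a sample. FPKM tables hold no totals, so depth was estimated from the steps between low values, and reads per gene from it and the transcript length. Such precision covers counting error only.

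Values were analysed as log2(FPKM + 1) for 10686 genes with at least 1 FPKM in at least 3 samples, with limma 3.58.1 (intensity trend, R 4.3.3), 9 samples in 1 fit, two-sided tests and Benjamini-Hochberg adjustment. The fit was tested on simulated data. Positions came from GENCODE vM21 (GRCm38) and promoter windows from RefSeq (GRCm38.p6). Python 3.11.15 and matplotlib 3.10.9 were used for summaries and plots. The text names the 9 genes, a list of 41 other pathway genes, marker lists, and the 3 genes most correlated with each of the 9 that had a group mean of at least 10 FPKM. Genes and lists were chosen with earlier results of these data known. Alternatives were a pseudocount of 0.1, other filters, quantile, TPM and median-ratio scaling, other fits, a block for the replicate number, and omission of each sample in turn. Results of some genes are not reported here.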

Additional observations from a re-analysis of the deposited data

How the results depend on the processing

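Of 27 log2 changes of the 9 genes, 23 kept their direction and their side of the threshold in every setting that gave a value, up to 18 settings each. For F3 and Plau, 14 and 15 settings gave values. The change of Tfpi between Tumor-macrophage and Tumor-AM (0.49) was outside the threshold with no filter on low values (0.486, limma adjusted p = 0.148), quantile normalization (0.437, adjusted p = 0.0693), rescaling to TPM (0.410, adjusted p = 0.0863) and a fit of both compared groups only (0.486, adjusted p = 0.0519), and ran from 0.342 without Tumor-macrophage 3 to 0.681 without Tumor-macrophage 1 when 1 sample was left out. The change of Plaur between Tumor-AM and Ctrl-AM was 0.227 after rescaling to TPM (limma adjusted p = 0.0952) and ran from 0.325 to 0.430 when 1 sample was left out. That of F7 was 0.414 and past the threshold in the fit of both AM groups only (limma adjusted p = 0.00636), and ran from 0.386 to 0.460 when 1 sample was left out. The uncalled change of F10 between the AM groups (0.05) changed sign with quantile normalization (−9.05e-05) and rescaling to TPM (−0.0832). The cause of these differences was not tested.

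When the replicate number was a block, the change of Tfpi between Tumor-macrophage and Tumor-AM was 0.486 (limma adjusted p = 0.0586), and no other call of the 9 genes changed. The block moved the count over all genes to 938 between Tumor-AM and Ctrl-AM, 5069 between Tumor-macrophage and Tumor-AM and 5772 between Tumor-macrophage and Ctrl-AM. Deviations of 9 same-numbered pairs of samples correlated with r from −0.062 to 0.159, and 2 were over 0.1. Pairs with Ctrl-AM, which hold the highest r, are of different mice. They cannot tell whether Tumor-AM and Tumor-macrophage samples share mice. The labels name no pairs, so the numbers were not taken to pair the samples. Between Tumor-AM and Tumor-macrophage every sample correlated best with its own number (r of 0.026, 0.096 and 0.109), a hint from the data and not from the design, and this did not hold for comparisons with Ctrl-AM. Among all genes, 1100 differed between Tumor-AM and Ctrl-AM, 505 with no filter on low values and from 535 (without Ctrl-AM 1) to 1255 when 1 sample was left out, with 546 without Ctrl-AM 3, 675 without Tumor-AM 3 and 682 without Ctrl-AM 2. Of the 41 other pathway genes, 0 were called between the AM groups, and 1 after rescaling to TPM (Vkorc1, −0.26, limma adjusted p = 0.0322). Rescaling to TPM moved the median log2 change of all genes to −0.11 between Tumor-AM and Ctrl-AM and to −0.22 between Tumor-macrophage and Ctrl-AM, and the calls from 760 higher and 340 lower to 477 and 830, and from 2960 and 2900 to 2193 and 4529. Between Tumor-macrophage and Tumor-AM, TPM moved them from 2588 and 2603 to 2198 and 3176. Quantile normalization gave 607 higher and 446 lower between the AM groups. Depth limits F3 to at most about 31.7 reads per sample and Plau in AMs to 19.0.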
